A study of Caenorhabditis elegans with 2 samples.

Results

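The small subunit of the cytoplasmic ribosome is described here through its genes and the peaks of Y53G8AR.9, a Caenorhabditis elegans protein annotated with a CCCH-type zinc finger domain. The set was taken from gene names alone: every protein-coding gene of the WBcel235 annotation (the Ensembl name of ce11) whose name begins with rps-. That gave 31 genes, rps-0 to rps-30, of 19973 protein-coding genes on the nuclear chromosomes. The occupancy data came from chromatin immunoprecipitation and sequencing (ChIP-seq) with an anti-GFP antibody on strain RW12264. This strain carries allele st12264, a CRISPR insertion of TY1, EGFP and 3xFLAG tags in Y53G8AR.9 at its own locus. Animals were grown from starved L1 larvae and collected whole as young adults at 64 hours. The design holds 1 group of 2 biological replicates, both of that strain, so no condition was compared with another. All tissues were pooled within a sample, and the values cannot say in which cells the tagged protein lay. A possible control experiment is named in the labels and was not analysed here.

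Ribosomal protein genes encode the protein part of the ribosome, and the small subunit is the part that binds mRNA, scans for the start codon and reads it in the decoding centre. In structures from yeast and human, its proteins fall into a head and a body with a platform, joined by a neck through which the mRNA passes. Genes of this family are short and strongly transcribed in growing cells, and their products are needed in equal amounts. Most C. elegans pre-mRNAs receive a spliced leader by trans-splicing, so an annotated gene start can lie at the splice site, downstream of where transcription begins.

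Peaks were read at both ends of each gene. A start summit is a peak summit within 500 bp of any annotated coding transcript start, on either side, and an end summit is one lying 1 to 300 bp past the 3′ end of the gene. Distances are negative upstream of the start. Unless a replicate is named, signals are the authors' peak values for both replicates together in the conservative list, which holds 2742 peaks with a median signal of 70.4. Their scale is not stated, and the depth of the libraries is unknown because no read counts were used. A signal is therefore an arbitrary unit that ranks peaks within a list. Replicate 1 and replicate 2 have their own lists, a long ranked one and a short one cut at a score of 830, which corresponds to an irreproducible discovery rate of 0.01.

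Start summits lay upstream in 16 of 19 genes, and more genes (24) had an end summit. Sequences under upstream summits outside the gene bodies are shown first. They were taken from chromosomes II to V and X only, so the start windows of rps-19, rps-15, rps-20, rps-26 and rps-10, whose signals are above the lowest of those printed, are not shown. Each is 101 bases of ce11 centred on the summit, 5′ to 3′ on the strand of the gene, free of annotated coding sequence and UTR. Capitals mark the 10-base word of the window that recurs in the most other summit windows of the conservative list on chromosomes II to V and X. In the rps-24 window the word occurs again further along, and only its first copy is in capitals. The windows belong to rps-1 (III:4475614-4475714, plus strand, summit at −254), rps-12 (III:5679079-5679179, plus strand, −169), rps-28 (IV:1659209-1659309, plus strand, −432), rps-24 (IV:385478-385578, plus strand, −359) and rps-23 (IV:12391268-12391368, minus strand, −265). A pair of windows past 3′ ends, of rps-25 (IV:5946848-5946948, minus strand, 195 bp past the end) and rps-13 (III:6373941-6374041, minus strand, 106 bp past the end), are shown for contrast.
rps-1: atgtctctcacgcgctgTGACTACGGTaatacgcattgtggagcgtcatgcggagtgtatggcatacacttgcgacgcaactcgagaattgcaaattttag
rps-12: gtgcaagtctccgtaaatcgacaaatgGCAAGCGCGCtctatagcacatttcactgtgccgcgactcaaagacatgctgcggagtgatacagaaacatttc
rps-28: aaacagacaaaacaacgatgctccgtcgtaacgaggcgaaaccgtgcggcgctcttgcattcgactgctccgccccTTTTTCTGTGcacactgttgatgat
rps-24: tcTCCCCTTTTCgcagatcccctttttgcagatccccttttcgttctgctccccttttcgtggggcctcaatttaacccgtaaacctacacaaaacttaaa
rps-23: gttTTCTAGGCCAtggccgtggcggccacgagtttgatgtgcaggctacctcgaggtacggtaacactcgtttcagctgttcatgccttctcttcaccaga
rps-25 3′ end: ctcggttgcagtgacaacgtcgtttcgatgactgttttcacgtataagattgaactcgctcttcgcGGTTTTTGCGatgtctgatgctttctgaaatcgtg
rps-13 3′ end: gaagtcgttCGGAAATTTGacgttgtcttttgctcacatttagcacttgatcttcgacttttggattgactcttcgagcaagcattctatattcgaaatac

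A second set of sequences shows the longest run that start-summit windows of these genes had in common. Among the 11 start-summit windows on chromosomes II to V and X, 4 of the 55 pairs shared a run of at least 10 bases on either strand. The longest, 16 bases, was common to the windows of rps-22 and rps-0, in the same orientation. It occurred 10 times on those chromosomes, and 5 of the copies lay upstream of a ribosomal protein gene: rps-22, rps-0, rps-30, rpl-7A and rpl-32. These are printed with 20 bases on each side, the shared run in capitals. The strands given are those of the printed sequence: rps-22 (III:1950412-1950467, plus), rps-0 (III:4754299-4754354, minus), rps-30 (V:7776325-7776380, plus), rpl-7A (IV:4390610-4390665, plus) and rpl-32 (II:9057419-9057474, plus).
rps-22: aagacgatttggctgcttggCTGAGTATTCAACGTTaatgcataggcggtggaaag
rps-0: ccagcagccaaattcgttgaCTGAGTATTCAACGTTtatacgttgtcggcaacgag
rps-30: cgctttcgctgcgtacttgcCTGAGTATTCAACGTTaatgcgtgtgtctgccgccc
rpl-7A: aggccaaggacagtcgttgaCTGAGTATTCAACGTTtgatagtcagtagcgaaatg
rpl-32: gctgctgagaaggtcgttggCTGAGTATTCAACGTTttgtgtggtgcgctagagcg

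Most small subunit genes carried a summit at one end or the other. A start summit was found at 19 of the 31 genes (61.3%, exact 95% interval 42.2 to 78.2), against 1299 of all coding genes (6.5%). An end summit was found at 24 of the 31 (77.4%, interval 58.9 to 90.4), against 908 of all coding genes (4.55%). Both were found at 16 of the 31 (51.6%, interval 33.1 to 69.8), against 314 of all coding genes (1.57%). A start summit without an end summit was found at rps-0, rps-16 and rps-21, and an end summit without a start summit at rps-2, rps-4, rps-5, rps-9, rps-13, rps-25, rps-27 and rps-29. The 4 genes with neither were rps-3, rps-8, rps-18 and rps-30. These Clopper-Pearson intervals cover counting error only and take each gene as an independent draw.

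**Figure D1:**
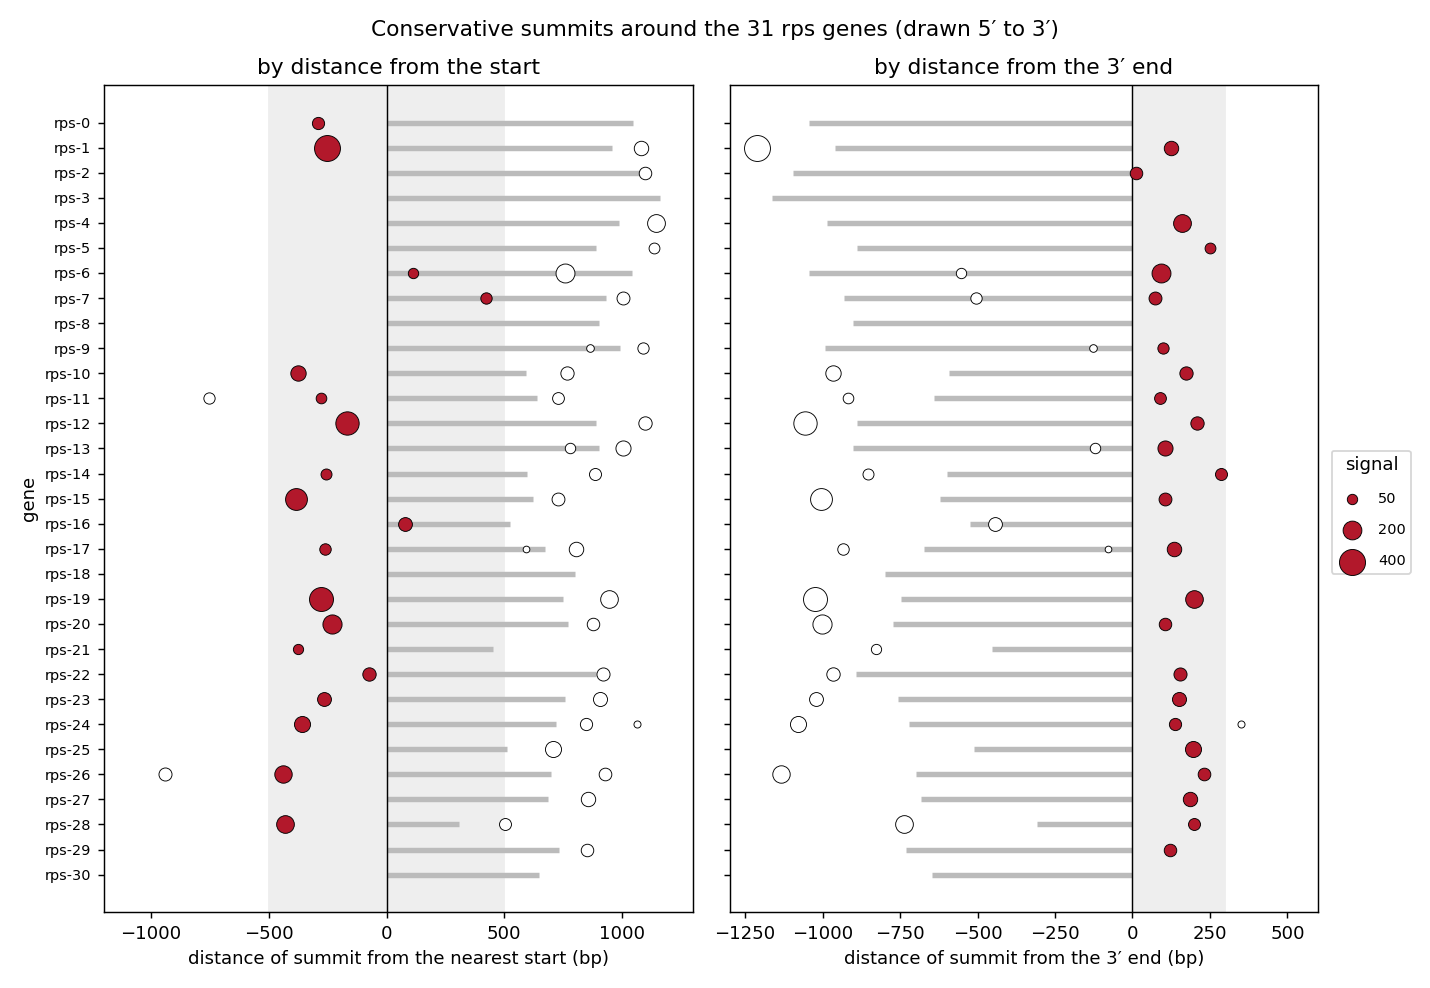
Summits of the conservative list around each of the 31 rps genes (rows), plotted by distance in bp from the nearest coding start (left) and from the 3′ end (right); grey bars are the gene bodies, circle area follows the peak signal, and filled circles lie in the shaded window that defines a start or an end summit. Start summits sit upstream of the gene in 16 of 19 genes, and end summits form a column past the 3′ end in 24 genes.

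Starts and ends were also occupied in each replicate's own thresholded list, at lower counts and not always at the same genes. In replicate 1, 14 of the 31 genes had a start summit, against 3.71% of coding genes, and 18 had an end summit, against 2.54%. In replicate 2, 14 had a start summit, against 3.39% of coding genes, and 13 had an end summit, against 2.25%. A start summit was found in both replicates' lists at 11 genes and an end summit at 10. For each end, the share among the small subunit genes was above that of all coding genes in both replicates.

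Along the gene, summits were concentrated in 2 places. In 100 bp bins, 8 of the 31 genes (25.8%) had a summit between −300 and −201 bp, against 1.28% of all coding genes. Past the 3′ end, 15 genes (48.4%) had a summit at 100 to 199 bp, against 2.13% of all coding genes. Over all coding genes, too, the end bin with the highest share was the one at 100 to 199 bp. The start side differed more in position. The strongest start summit lay at a median of −265 bp in the small subunit genes and −151 bp in all coding genes with one, and the share lying upstream was 84.2% (16 of 19) and 73.8%. The 16 upstream summits of the small subunit genes ranged from −439 to −75 bp, with a median of −278. Their end summits ranged from 10 to 287 bp past the gene, with a median of 144 bp, against 152 bp over all coding genes with one.

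**Figure D2:**
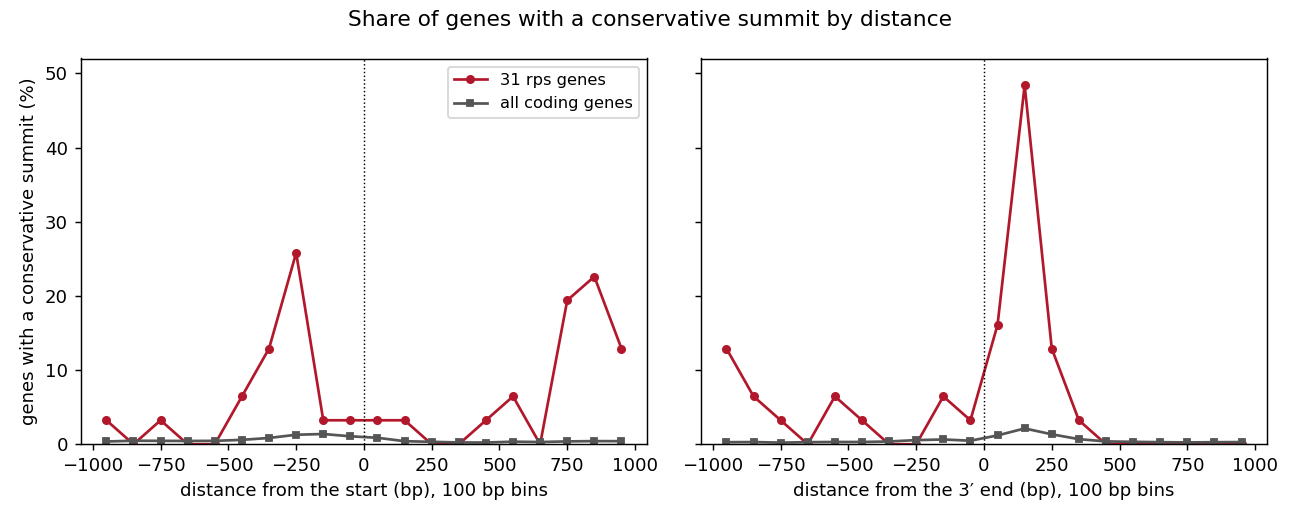
Percent of genes with a conservative summit in each 100 bp bin of distance from the start (left) and from the 3′ end (right), for the 31 rps genes and for all coding genes. The rps genes reach 25.8% between −300 and −201 bp and 48.4% at 100 to 199 bp past the end; the rise from 700 bp after the start holds end summits of genes whose median length is 756 bp.

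Few summits lay near the edges of the windows. The start summits nearest the upstream edge were those of rps-26 at −439 bp and rps-28 at −432 bp, and the one farthest inside a gene was that of rps-7 at 424 bp. Just outside the start window lay a summit 504 bp after the start of rps-28, which is its end summit, since that gene is only 307 bp long. In the end zone of 1 to 300 bp, the summit of rps-2 lay nearest the inner limit, 10 bp past the gene, and that of rps-14 nearest the outer one, at 287 bp, and a summit of signal 14.6 lay just outside, 350 bp past rps-24.

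Among the head proteins, 8 of 13 genes had a start summit and 10 of 13 an end summit. All 8 of these start peaks had a score of 1000, the highest on the authors' scale. The strongest was that of rps-19, whose human counterpart is mutated in Diamond-Blackfan anaemia. Its peak at I:9625974-9626173 had a signal of 336, with 193 in replicate 1 and 155 in replicate 2, and its summit lay at −278 bp. The gene for the beak protein RPS12, rps-12, had a signal of 318 at III:5679032-5679222, with 165 in replicate 1 and 149 in replicate 2. The gene of RPS15, a protein close to the decoding site, had a signal of 276 at I:8816486-8816674 and −383 bp, with 153 in replicate 1 and 121 in replicate 2. All 3 peaks were among the 60 strongest of the 2742 in the conservative list, at ranks 32, 43 and 60, and all were higher in replicate 1.

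The other head genes with a start summit spanned a wide range. At rps-20, one of the conserved head proteins, the peak at I:14469259-14469407 lay at −231 bp with a signal of 209, and 122 and 86.1 in replicates 1 and 2. At rps-28, whose protein lines the mRNA exit, the peak at IV:1659202-1659306 lay at −432 bp with a signal of 176, and 75.5 and 103 in replicates 1 and 2. This peak was the higher of the pair in replicate 2, unlike those of rps-19, rps-12, rps-15 and rps-20. At rps-10 the peak at I:4584720-4585039 lay at −375 bp with a signal of 129, and 69.9 and 60.2 in replicates 1 and 2. The peaks of rps-16, whose protein reaches with its tail to the tRNA, and of rps-17 were lower, at 101 and 64.7. The summit of rps-16 lay 78 bp inside the gene, in its coding sequence, and 188 bp past the 3′ end of fib-1, the gene for the nucleolar methyltransferase fibrillarin, so that a single peak of signal 101 counts for both genes. That peak had 36.8 in replicate 1 and 58.03 in replicate 2, and it passed the threshold in replicate 2 alone. The reverse held at rps-17, with 48.96 in replicate 1 and 24.0 in replicate 2.

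Among the body and platform proteins, 11 of 18 genes had a start summit and 14 of 18 an end summit. The strongest start peak of all 31 genes was that of rps-1, which encodes a protein of the platform near the mRNA exit. It lay at III:4475554-4475758, at −254 bp, with a signal of 396, and 225 and 177 in replicates 1 and 2. Its rank in the conservative list was 15. The rps-26 gene, whose product also lines the mRNA exit, had a signal of 169.8 at I:14759428-14759599 and −439 bp, with 111 and 61.9 in replicates 1 and 2. The rps-24 peak at IV:385368-385687 had a signal of 142 at −359 bp, with 75.8 and 66.3 in replicates 1 and 2. The rps-23 gene, whose protein sits in the decoding centre, had a signal of 102 at IV:12391158-12391477 and −265 bp, with 56.1 and 53.1 in replicates 1 and 2. After these 4, no start peak of a body or platform gene reached 100.

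The remaining 7 start peaks of body and platform genes had signals of 48.6 to 93.8. That of rps-22 (93.8, with 54.9 and 48.6 in replicates 1 and 2) was the only one of them past the threshold in both replicates. Those of rps-0 (75.8, with 36.9 and 38.7) and rps-6 (49.98, with 25.6 and 33.9) passed in replicate 2 alone, and that of rps-11 (53.6, with 45.4 and 23.3) in replicate 1 alone. Those of rps-7 (63.1, with 41.4 and 25.8), rps-14 (58.4, with 39.1 and 27.2) and rps-21 (48.6, with 35.4 and 26.9) were under the threshold in each replicate. The summits of rps-6, the gene of the S6 kinase substrate, and of rps-7 lay in their coding sequence, 114 and 424 bp after a start. Scores were 844 for the rps-6 peak and 960 for the rps-11 peak, and 1000 for the other 17 start peaks of the 31 genes. Start signals of the 2 sets overlapped: head genes ranged from 64.7 to 336 with a median of 193, and body and platform genes from 48.6 to 396 with a median of 75.8. The difference was not tested.

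Over all 19 start peaks, the signal ran from 48.6 to 396 with a median of 102. Over all coding genes with a start summit, the median was 80.7, with quartiles of 63.0 and 114. The signal was above the median of the conservative list at 13 of the 19 genes. Among the 19, 7 peaks were narrower than the 320 bp that 85.7% of conservative peaks measured. Those 7 were the peaks of rps-1, rps-12, rps-15, rps-19, rps-20, rps-26 and rps-28, which are also the 7 with the highest signals.

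**Figure D3:**
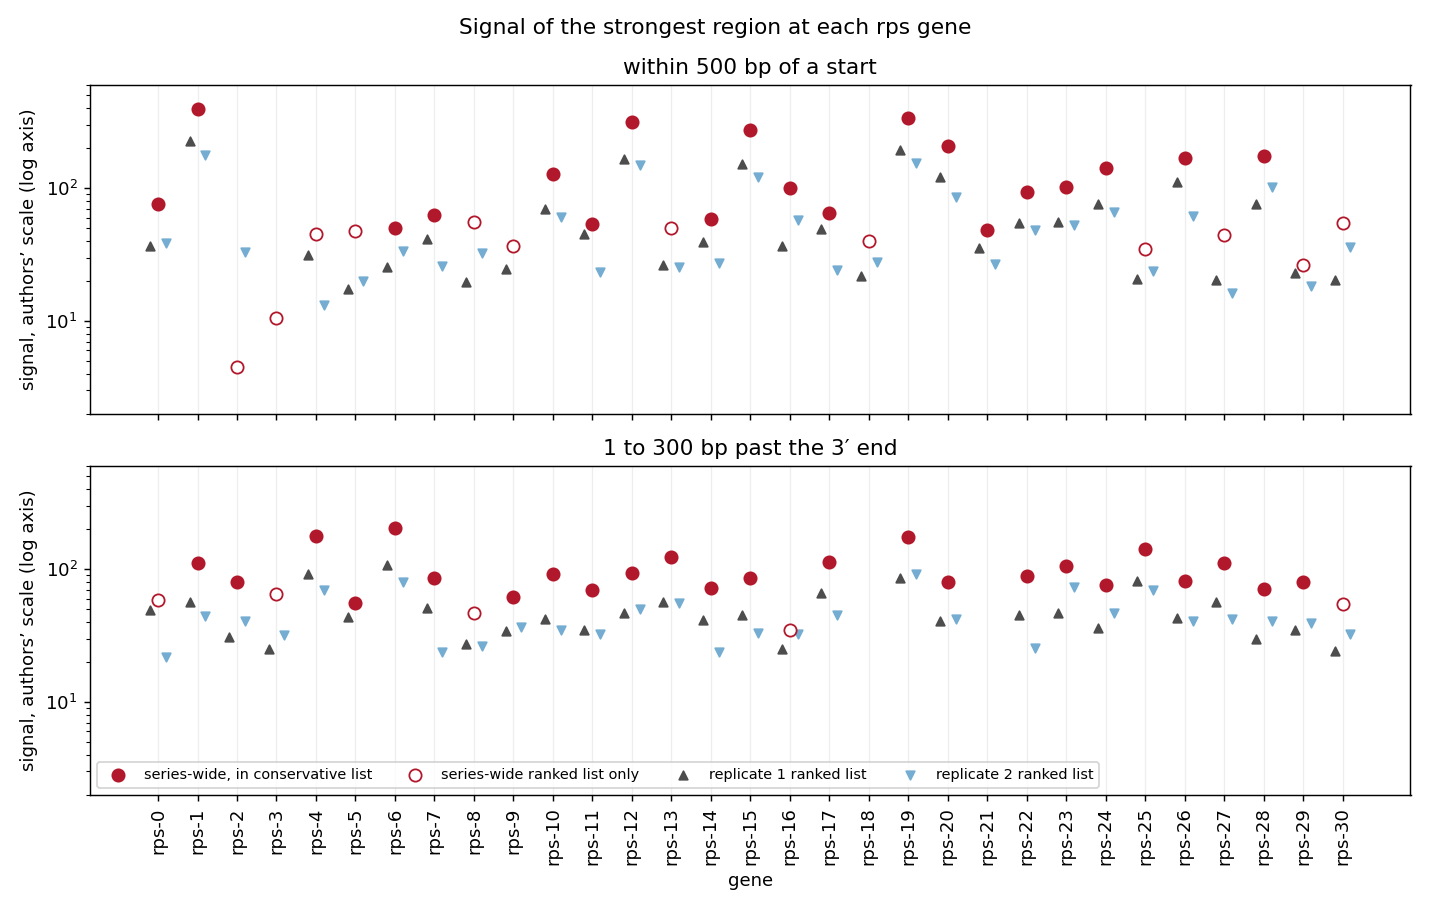
Signal of the strongest region at each rps gene, on a log axis in the authors' units. The top panel holds regions within 500 bp of a start, the bottom panel those 1 to 300 bp past the 3′ end. Circles are series-wide values, filled where the region is in the conservative list. Triangles are the strongest overlapping region in each replicate's ranked list. Start signals reach 396 at rps-1, while filled end signals stay between 56.1 and 204.

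The 3′ end peaks covered a narrower range, 56.1 to 204, with a median of 87.9, against 77.6 over all coding genes with an end summit. Of the 24, 21 were above the median of the conservative list. The strongest was that of rps-6 at I:13953240-13953405, 92 bp past the gene, with a signal of 204, and 108 and 80.7 in replicates 1 and 2. The peak past rps-4 at IV:7083403-7083622, 160 bp from the end, had a signal of 178, with 92.5 and 69.2. The peak past rps-19 at I:9624774-9624963, at 197 bp, had a signal of 175, with 86.3 and 92.5. Of these 3 genes, rps-19 was strong at both ends, rps-6 was weak at its start, and rps-4 had no start summit.

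Peaks of intermediate strength followed at 6 genes. The peak past rps-25, a gene whose yeast and human counterparts serve initiation on some viral RNAs, lay at IV:5946738-5947057 and 195 bp, with a signal of 142, and 80.9 and 70.1 in replicates 1 and 2. That of rps-13 lay at III:6373844-6374095 and 106 bp, with a signal of 124, and 57.1 and 55.7. That of rps-17 lay at I:6219799-6220118 and 134 bp, with a signal of 113, and 66.6 and 45.02. Of the 6, the replicate values lay closest together at rps-13. Past rps-1 the peak at III:4476840-4477159 and 124 bp had a signal of 112, with 56.6 and 44.7. Past rps-27, the gene of a zinc-binding body protein, the peak at V:103049-103368 and 185 bp had a signal of 111, with 57.1 and 42.4. Past rps-23 the peak at IV:12389987-12390306 and 151 bp had a signal of 105, with 47.1 and 73.3, the highest replicate 2 value relative to replicate 1 of the 9 end peaks above 100.

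The other 15 end peaks lay between 56.1 and 93.2. Among the head genes, rps-12 had 93.2 at III:5680236-5680555 (209 bp; 46.7 and 50.4 in replicates 1 and 2) and rps-10 had 92.2 at I:4583579-4583898 (174 bp; 42.5 and 35.0). At rps-15 the signal was 85.6 at I:8815307-8815626 (105 bp; 45.1 and 33.3), and at rps-29, whose protein binds zinc in the head, 80.1 at III:794992-795311 (121 bp; 34.6 and 39.3). At rps-20 it was 79.98 at I:14468067-14468386 (105 bp; 40.6 and 41.9), at rps-28 71.6 at IV:1660035-1660354 (198 bp; 30.04 and 40.9), and at rps-5 56.1 at IV:11109748-11110067 (249 bp; 43.7 in replicate 1). The rps-5 peak was the weakest of the 24, and replicate 2's ranked list held no region there.

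Among the body and platform genes, rps-22 had 89.2 at III:1951417-1951736 (152 bp; 45.3 and 25.3 in replicates 1 and 2) and rps-7 had 86.6 at I:10331722-10332041 (74 bp; 50.7 and 23.6). At rps-26 the signal was 82.2 at I:14760696-14761015 (230 bp; 43.0 and 41.1), and at rps-2, whose protein borders the mRNA entry, 80.4 at IV:7925128-7925447 (10 bp; 31.0 and 41.0). At rps-24 it was 76.0 at IV:386583-386902 (137 bp; 35.9 and 47.0), and at rps-14, a platform protein gene, 72.7 at III:7178544-7178863 (287 bp; 41.3 and 23.6). Replicate 1 was the higher at rps-22, rps-7 and rps-14, where the values of the pair were farthest apart. At rps-11 the signal was 69.5 at IV:11603209-11603528 (89 bp; 35.0 and 32.6), and at rps-9 it was 62.0 at II:11125112-11125431 (99 bp; 34.1 and 36.6). The score was 1000 for 22 of the 24 end peaks, 998 for that of rps-7 and 950 for that of rps-14.

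Start and end signals of the same gene showed little relation. Of the 16 genes with both, the start peak was the stronger at 10 and the end peak at 6, and the ratio of start to end signal had a median of 1.63. It ranged from 0.245 at rps-6 to 3.54 at rps-1. Ratios above 3 were also seen at rps-12 (3.41) and rps-15 (3.22), and rps-17 had the next lowest ratio (0.573). Across the 16 genes, Pearson's r of the log2 signals was 0.045 and Spearman's rho 0.138, a description over genes that share the same libraries.

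The replicates ranked the start peaks alike and the end peaks less so. Across the 19 called start peaks, the ranked-list signals of the replicates had a Pearson's r of 0.887 on the log2 scale and a Spearman's rho of 0.839. Across the 23 called end peaks with a region in both lists, the values were 0.648 and 0.626. The signal was higher in replicate 1 at 15 of the 19 start peaks, with a median ratio of replicate 1 to replicate 2 of 1.25 (0.634 to 2.04). It was higher in replicate 1 at 14 of the 23 end peaks, with a median ratio of 1.07 (0.643 to 2.15). Over the whole ranked lists the median signal was also higher in replicate 1, at 14.97 against 12.91 in replicate 2. A called start peak passed the threshold of both replicates at 11 genes, of replicate 1 alone at 2, of replicate 2 alone at 3 and of neither at 3. A called end peak passed in both at 10 genes, in replicate 1 alone at 7, in replicate 2 alone at 3 and in neither at 4, which were rps-9, rps-14, rps-20 and rps-26. Genes are not independent replicates, the end signals cover a smaller range than the start signals, and the difference between the correlations was not tested. The called peaks had also passed a cut on the irreproducible discovery rate, so agreement between replicates may in part be selected for.

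**Figure D4:**
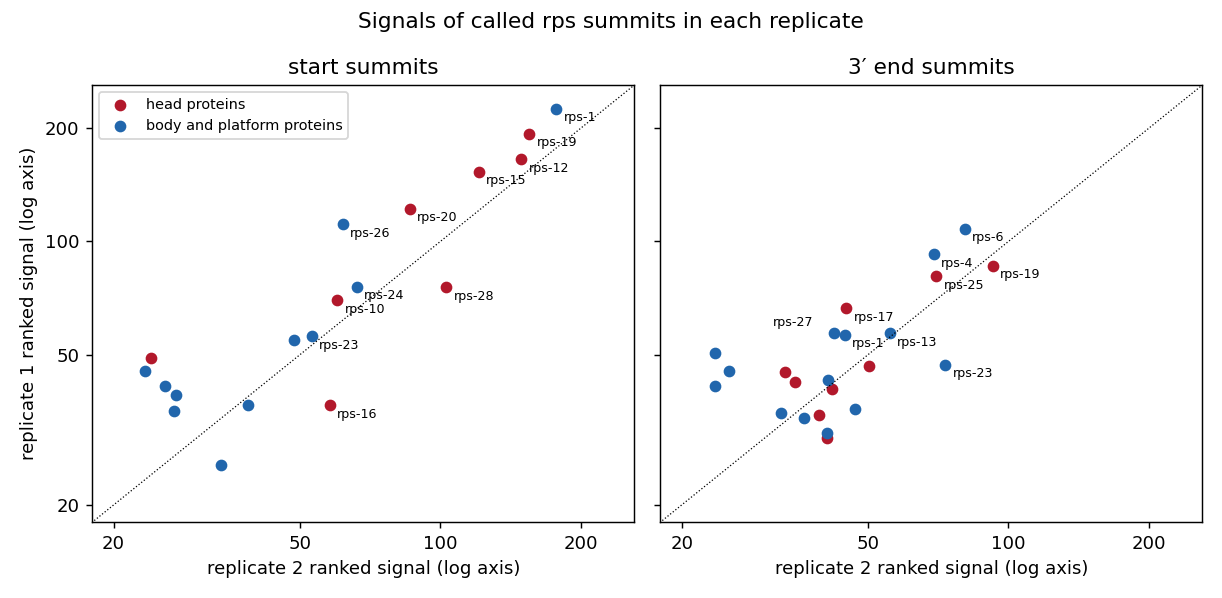
Ranked-list signal in replicate 1 (vertical, log axis) against replicate 2 (horizontal, log axis) for called start summits (19 genes) and called 3′ end summits (23 genes with a region in both), coloured by the position of the protein in the subunit; the dotted line marks equal values and peaks with a series-wide signal of 100 or more are named. Start peaks follow the line from 23.3 to 225, and end peaks form a denser cloud from 23.6 to 108.

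Most ends without a called summit held a weaker region. All 12 genes without a start summit had a region of the series-wide ranked list near a start, with signals of 4.48 to 56.03 and a median of 41.95, against a median of 25.4 and an upper quartile of 34.5 over the 10848 coding genes with a ranked region near a start and no call. Highest among them were rps-8 (56.03, with 19.8 and 32.7 in replicates 1 and 2), rps-30 (55.1, with 20.2 and 36.3) and rps-13 (50.5, with 26.5 and 25.4). All 3 exceeded the signals of the called rps-6 and rps-21 peaks, so that signal alone did not separate the called from the uncalled starts. The lowest were rps-2 (4.48) and rps-3 (10.5), the gene of a head protein at the mRNA entry. A region of 33.2 in replicate 2's own ranked list overlapped the one at rps-2, and none of replicate 1's did. The one at rps-3 was overlapped by no region of either replicate's ranked list.

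Of the 7 genes without an end summit, 5 had a ranked region past the 3′ end, with signals of 34.7 to 64.7 and a median of 54.4, against a median of 23.2 and an upper quartile of 34.4 over the 5808 coding genes with a ranked region and no call there. Several lay just under the score of 830: rps-8 at 819, rps-3 at 812, rps-16 at 805 and rps-30 at 768. Thus rps-3, rps-8 and rps-30, which had no summit by the rule, held end regions close to the threshold, with signals of 64.7, 46.6 and 54.4. The region past rps-0 had a score of 93 in the series-wide list, with a signal of 59.01. In the replicate 1 list, a peak there passed with a score of 956 and a signal of 48.9, and replicate 2 had 21.97. No ranked region had its summit 1 to 300 bp past rps-18 or rps-21. The rps-18 gene therefore had no called summit at either end and a start region of 39.8 only.

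Neighbouring genes shared many of the peaks. At 10 of the 19 start summits another coding gene also started within 500 bp, and 2 of these neighbours encode large subunit proteins: rpl-24.1 beside rps-10 and rpl-36 beside rps-14. The others were rbg-3 (rps-0), ska-3 (rps-12), F36A2.9 (rps-15), hsr-9 (rps-19), ekl-4 (rps-20), polh-1 (rps-22), dpm-3 (rps-23) and tmem-107 (rps-26). The summits of rps-0, rps-10, rps-12, rps-19, rps-20 and rps-26 lay nearer to the neighbour's start than to their own. Those of rps-14, rps-15, rps-22 and rps-23 lay nearer to their own. With each summit given to the nearest coding start alone, 13 small subunit genes had a start summit. At 3 start summits the peak also lay 1 to 300 bp past the end of a gene upstream, fib-1 (rps-16), T08B2.11 (rps-17) and mec-14 (rps-21). The summits of rps-1, rps-0 and rps-10 lay inside annotated noncoding RNA genes, F56F3.10, B0393.12 and D1007.22. The strongest peak, that of rps-1, had no other coding start in reach, and neither did those of rps-28 and rps-24.

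Shared position also touches the end summits. At 11 of the 24, the summit lay within 500 bp of the start of another coding gene, so that the same peak could be counted for the neighbour, among them Y43B11AR.3 (rps-4), pigk-1 (rps-5), tmem-39 (rps-10), pst-2 (rps-12), Y105E8A.14 (rps-20), F53A3.7 (rps-22), T07A9.14 (rps-24), inx-7 (rps-25), Y41D4B.4 (rps-28) and trpp-11 (rps-29). The other 13 (54.2%) lay clear of any coding start, against 527 of 908 (58.04%) for all coding genes with an end summit. The 13 had signals of 62.0 to 204 with a median of 86.6, and the 11 had 56.1 to 178 with a median of 89.2, so the ranges overlapped. At 5 genes the end summit also lay past the 3′ end of a convergent neighbour: ZC434.4 (rps-7), ragc-1 (rps-11), thoc-2 (rps-13), rbm-5 (rps-17) and T05F1.2 (rps-19). Of the 13 clear of coding starts, those past rps-1 and rps-26 fell in exons of the coding genes ins-17 and gpr-158.

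The chromosomes held different numbers of the genes and of their summits. All 8 genes on chromosome I had both a start and an end summit, against 9.49% and 7.19% of all coding genes there. On chromosome III, 6 of 9 had a start summit and 6 of 9 an end summit, against 9.96% and 6.33%. On chromosome IV, 4 of 10 had a start summit and 8 of 10 an end summit, against 7.47% and 5.06%. On chromosome V both counts were 1 of 3, against 4.81% and 3.00%. The only member on chromosome II, rps-9, had an end summit alone, against shares of 5.83% for starts and 4.32% for ends, and none lies on chromosome X. The differences between chromosomes were not tested. The genes are short, 307 to 1163 bp with a median of 756 bp, against a median of 2027 bp for all coding genes. Inside the gene bodies, 6 of the 31 (19.4%) held a conservative summit, against 5.36% of all coding genes and 2.92% of the coding genes in the same range of length. Those were the start summits of rps-6, rps-7 and rps-16 and further summits of signal 51.1 in rps-13, 19.9 in rps-9 and 11.5 in rps-17.

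Other genes of translation gave a measure of scale. Among large subunit genes, 30 of 51 (58.8%) had a start summit, 35 of 51 (68.6%) an end summit and 21 (41.2%) both, with median signals of 105 and 93.6. Their strongest start peaks were those of rpl-3 (883), rpl-35 (616) and rpl-15 (607), and their strongest end peaks those of rpl-4 (219), rpl-27 (169) and rpl-3 (157). The counts were close to those of the small subunit, and the difference was not tested. They differed in position: 8 large subunit genes had an end summit clear of any coding start, against 13 small subunit genes. Of the small subunit genes not named rps-, ubl-1, which encodes a ubiquitin fused to a ribosomal protein, had an end summit of 107, and rack-1 had neither. Among 20 ribosome biogenesis genes, 9 had a start summit, led by pro-1 (132), fib-1 (112) and riok-3 (97.8), and 1 an end summit, fib-1 (101, the peak it shares with rps-16). Among 22 initiation factor genes, 7 had a start summit, led by eif-3.C (336), iff-2 (290.5) and clu-1 (107), and 2 an end summit, iff-1 (94.2) and eif-2alpha (51.5). The end share of the biogenesis genes (5.00%) was near the 4.55% of all coding genes.

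Base composition differed between the 2 kinds of summit. Within 50 bp of the 19 start summits the median G+C content was 48.5% (28.7 to 57.4), against 39.1% in windows 300 bp to each side, and it was higher at the summit in 16 of 19 (84.2%). Over the 1091 start summits of all coding genes it was 46.5% against 35.6%, and higher at the summit in 83.3%. At the 24 end summits the median was 42.1% (30.7 to 56.4), against 43.9% in the flanks, and it was higher at the summit in 10 of 24 (41.7%). Over the 859 end summits of all coding genes it was 40.6% against 35.6%, and higher at the summit in 68.8%. By these medians, the small subunit genes' end windows were further from that of all genes in their flanks than at the summit. The flank of an end summit reaches into the gene itself on one side, and the part that gene bodies play in the flank value was not tested.

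**Figure D5:**
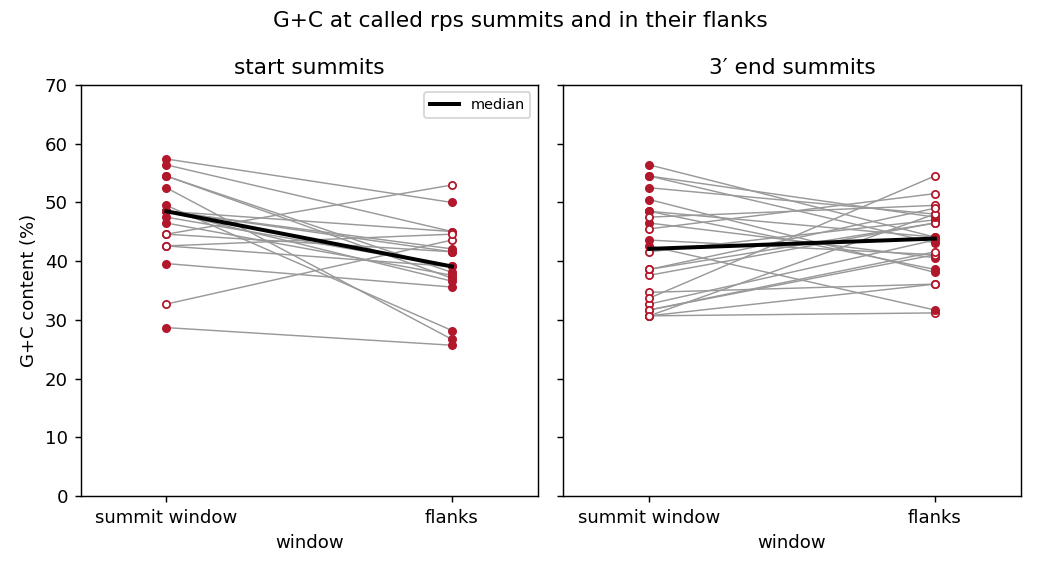
G+C content (percent) of the 101-base window at each called rps summit and of the windows 300 bp to its sides, for start summits (19) and 3′ end summits (24); lines join the values of a summit, filled points mark summits richer in G+C than their flanks, and the black line joins the medians. The median is 48.5% at start summits and 39.1% in their flanks, and 42.1% at end summits and 43.9% in theirs.

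The words in capitals in the printed windows recurred at other summits of the series to different degrees. They were picked from these windows because they recur most, so the counts are a description. Among the 2226 conservative summits on chromosomes II to V and X, the rps-12 word GCAAGCGCGC was found in 17 other summit windows, against 3 and 1 of the left and right flank windows. The rps-23 word TTCTAGGCCA was found in 8, against 2 and 1. The rps-1 word TGACTACGGT was found in 4, against 1 and 1. At other start summits the rps-11 word GGGTCTCGCA was found in 21, against 0 and 0, and the rps-0 word GCGTCTCTTC in 24, against 2 and 1. The rps-22 word ATTCAACGTT was found in 9, against 0 and 1, and the rps-14 word CGTGGTGAGA in 10, against 3 and 3. The rps-21 word GTCGATTTAC was found in 9, against 4 and 5, and the rps-16 word CTGCAAAAAG in 6, against 4 and 2. For the rps-28 word TTTTTCTGTG the counts were 6 at summits and 5 and 6 in flanks, and for the rps-24 word TCCCCTTTTC 8 at summits and 6 and 3 in flanks, both close to the flanks. The printed end windows of rps-25 (GGTTTTTGCG, 5 against 0 and 1) and rps-13 (CGGAAATTTG, 4 against 2 and 0) gave counts similar to that of the rps-1 start word. Past the 3′ end of rps-1, the word GCTGGCGCAC was found in 10, against 0 and 1. Not every end word is listed here. At the rps-9 end, the AT-rich word AATTTTTTTT was rarer at summits (16) than in the flanks (63 and 55).

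The 16-base run CTGAGTATTCAACGTT was likewise picked from the windows it joins. Of its 10 copies, 2 lie in the peaks of rps-22 and rps-0 from which it was picked. Of the 8 other copies, 4 lay inside a conservative peak, while conservative peaks cover 0.769% of those chromosomes. That share of all bases is not a matched background, since 6 of the 10 copies lay within 500 bp of a coding start. At rps-22 the copy is centred 95 bp upstream of the start, in a peak of 93.8. At rps-0 it lies in the peak of 75.8 shared with rbg-3, and at rpl-7A, 48 bp upstream of the start, in a peak of 351. The copy 225 bp upstream of rps-30 lies in a ranked region of signal 55.1 and score 544, under the threshold, and the copy at −362 bp from rpl-32 in one of 22.8. The 5 further copies are nearest to K08F11.1, fbxa-139, ptr-22, Y116F11B.9 and Y73B3A.20, and 3 of them lie in a conservative peak. Several of the 10 copies have flanking bases in common as well and are not independent of each other. Those nearest to K08F11.1, fbxa-139, ptr-22 and Y116F11B.9 have most flanking bases in common. So do those at rpl-7A and Y73B3A.20. The 4 other copies inside a conservative peak all belong to these groups. The next longest shared runs had more copies on the same chromosomes: the 13-base run of rps-12 and rps-21 had 115 copies with 4 in a peak, and the 12-base run of rps-24 and rps-16 had 80 copies with 9 in a peak.

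Short motifs near the annotated start gave counts that depended on the window. In the window of 250 bases before to 50 after the start, on both strands, the T run TTTTTTTT was found at 10 of 31 genes (32.3%), against 32.4% of coding genes. The TATA-like word TATAAA was found at 9 (29.0%), against 37.7%, and GAGAGA at 4 (12.9%), against 21.7%. CCGCCC was found at 2 (6.45%), against 7.78%, GCGCGC at 1 (3.23%), against 3.58%, and the E-box CACGTG at 0 of 31, against 5.79%. TTTCAG, the form of the splice acceptor in C. elegans, was found at 19 (61.3%), against 51.5%. In the 150 bases before the start alone, TTTCAG was found at 17 of 31 genes (54.8%), against 30.7% of coding genes. The median start summit, at −265 bp, lies outside the 250 bases. In the longer window of 500 bases before to 50 after, which reaches most summits, CCGCCC was found at 6 of 31 genes (19.4%), against 11.6%, and GAGAGA at 13 (41.9%), against 32.1%. There TTTCAG was found at 25 (80.6%), against 70.7%, GCGCGC at 2 (6.45%), against 5.72%, TATAAA at 17 (54.8%), against 55.6%, TTTTTTTT at 15 (48.4%), against 50.2%, and CACGTG at 0, against 9.4%. These shares were not tested.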

How the data were processed

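The deposited peak lists are on ce11. Per the deposited text descriptions, they were derived from filtered alignments of both replicates together or of each replicate, with a control alignment. Which aligner and caller were run is not given in the sources used here. Signals are the authors' deposited values, and their correction for depth or control is not stated. The score is the authors' deposited irreproducible discovery rate on an integer scale, with thresholded lists starting at 830. Summits are the authors' positions, which in peaks of the common 320 bp width lie at the centre.

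Summits were placed on the WBcel235 annotation (Ensembl release 115), with mitochondrial genes left out, and coordinates are 1-based. Where several summits qualified, the one with the highest signal was taken. Replicate values are those of the strongest region in each replicate's ranked list that overlaps the series-wide peak by at least 1 bp. The summit of that region can lie outside the window. Sequences were read from the ce11 genome, in windows of 101 bases, and shared runs and recurring words were sought on chromosomes II to V and X. All members were described; full values were given for the 10 strongest start peaks, for every end peak and for summits near a window edge. The gene set, the lists and the windows were chosen with earlier results of these data known, and no test was made over the members. Assignment was tested on simulated summits. Python 3.11.15, pandas 2.3.3, numpy 2.4.6, scipy 1.17.1 and matplotlib 3.10.9 were used.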

Additional observations from a re-analysis of the deposited data

How the results depend on the processing

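The count of genes with a start summit (19) fell to 5 with a 250 bp window, since most summits lie farther upstream, and stayed within 1.5 times of 19 in the other alternatives, at 13 to 24. It was 14 in the list of either replicate alone. The count with an end summit (24) fell to 12 with a 150 bp zone and to 13 without summits within 500 bp of any coding start, and was 13 without replicate 1 and 18 without replicate 2. The median start signal (102) was 112 with a 1000 bp window, 93.8 with each summit given to the nearest start alone, 136 without summits past a gene end, 116 in the other thresholded list, 169.8 among peaks at or above the median signal, and 64.1 to 75.7 in the list of a replicate alone. The median start position (−265 bp) was −75 with a 250 bp window, −277 in the other thresholded list, −278 among peaks at or above the median signal, and −283 to −272 in the list of a replicate alone. With a 1000 bp window it was 1.5, because that window reaches the end summits of such short genes. Motif counts in the 150-base and the 500-base promoter windows were 0 and 6 for CCGCCC (2 in the 250-base window), 0 and 13 for GAGAGA (4), 7 and 17 for TATAAA (9), 0 and 2 for GCGCGC (1), 6 and 15 for TTTTTTTT (10), 17 and 25 for TTTCAG (19), and 0 in all 3 for CACGTG. No paired analysis was possible because the design has a single group. The depth of the libraries is unknown.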
